A study of Homo sapiens with 12 samples.

Results

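The sodium pump beta subunit genes are ATP1B1, ATP1B2, ATP1B3 and ATP1B4, 4 of the 61806 genes in the expression table, selected by gene symbol. ATP1B4 was picked because it appeared in the passaged cells on Day 16, so its levels across the 6 groups are given as a description without a test. The other beta subunits, the alpha subunit ATP1A4 and the 7 FXYD regulators (FXYD1 to FXYD7) were set against it and tested.

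H1, a wild-type line of human embryonic stem cells, was driven toward cardiomyocytes and sampled for RNA-seq on Day 12 or Day 16. All groups went through the same mesendoderm induction in DF medium, with the WNT activator CHIR-99021 and then insulin. NP-IWP2 cells were left in static culture and received the WNT inhibitor IWP2. Passaging on Day 2 followed by spontaneous differentiation, without IWP2, made the P-DF group, and passaging on the same day followed by IWP2 made the P-IWP2 group. Each treatment had 2 libraries per day, 12 libraries in all, all from 1 line. The labels do not say that the 2 libraries of a group came from separate cultures, so p-values measure only the spread between these libraries. There was no static group without IWP2, so P-DF differs from NP-IWP2 in both the passaging and IWP2. Passaging meant dissociation and replating into new wells, and the paper reports adding the ROCK inhibitor Y27632 in its later differentiation experiments. These parts of the passaging cannot be told apart here.

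The sodium pump (Na,K-ATPase) exchanges intracellular sodium for extracellular potassium and keeps up the gradients on which the action potential and calcium extrusion of heart muscle depend. The alpha subunit splits ATP and binds cardiac glycosides such as digoxin. The beta subunit is a glycoprotein that folds alpha, brings it to the surface and takes part in adhesion between cells, and the small FXYD proteins tune the affinity of the finished pump. ATP1B4 is the odd member. In placental mammals its protein, BetaM, no longer serves the pump. It sits in the inner nuclear membrane of muscle cells, above all around birth, and binds the transcriptional co-regulator SNW1.

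ATP1B4 (ENSG00000101892) lies at chrX:120362085-120383249 of GRCh38 on the plus strand, and no other gene in the table overlaps it. Its upstream sequence is shown because this is the beta gene whose transcript appeared during the experiment. The 246 bases before the gene start (chrX:120361839-120362084, plus strand, RefSeq promoters of GRCh38.p14) are written 5′ to 3′, with motif matches in capitals.
ATP1B4: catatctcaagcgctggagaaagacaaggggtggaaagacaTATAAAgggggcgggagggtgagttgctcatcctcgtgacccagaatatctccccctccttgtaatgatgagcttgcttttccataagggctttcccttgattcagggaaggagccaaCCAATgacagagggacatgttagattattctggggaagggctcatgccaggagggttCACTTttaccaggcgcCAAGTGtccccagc
From left to right, the first capitals mark the letters TATAAA of a TATA box, which begin 205 bases before the gene start. The next are a CCAAT box. They are followed by an NKX2-5 motif, AAGTG, read on the minus strand. The last are an E-box, CANNTG, which overlaps another match of the NKX2-5 motif on the plus strand. Among 35114 RefSeq promoters, read over the 250 bases before the start and on both strands, 10.7% held the TATA box, 32% the CCAAT box, 61.8% the E-box and 37.6% the NKX2-5 motif. The GATA motif AGATAA, the MCAT motif GGAATG, the T-box motif AGGTGT, the MEF2 motif and the SRF CArG box were also searched, and none had a match in this window. These motifs occurred in 9.17%, 11.9%, 9.57%, 2.8% and 1.16% of promoters.

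The promoters of the 4 genes had different base composition. The ATP1B4 window had a GC content of 51.6% and 4 CpG dinucleotides, and 29.3% of promoters had fewer. ATP1B1 and ATP1B3 were CpG-rich, with 35 and 39 CpG and a GC content of 77.6% and 77.2%, and each held a CCAAT box and none of the other motifs. ATP1B2 was closer to ATP1B4, with 8 CpG and a GC content of 49.2%, and held none of the motifs. The letters describe these windows and do not show that any factor bound them.

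Between 14885589 and 19176239 reads were counted on genes per library. Transcripts of cardiomyocytes were present throughout: of 16 cardiomyocyte genes, 15 or 16 had a mean of at least 1 FPKM (counted reads divided by exon length and by the library total) in each group. The summed FPKM of 4 pluripotency genes was 18.7 or less in every library. Transcripts of some other cell types were higher in static cells. On Day 16, 11 hepatic and endodermal genes summed to 760 to 925 FPKM in NP-IWP2, 14.2 to 14.9 for P-DF and 16.2 to 20.1 for P-IWP2. The sums of 7 fibroblast genes were 1361 to 1385, 23.9 to 28.1 and 36.2 to 38.8. The sums of 6 endothelial genes on Day 16 were 49.82 to 50.02 FPKM in NP-IWP2, 13.45 to 15.01 for P-DF and 10.08 to 12.99 for P-IWP2. On Day 12 these sums overlapped, at 179 to 198 FPKM in NP-IWP2 and 161 to 224 for P-DF. Of the 6 endothelial genes, 5 had a Day 12 mean of at least 1 FPKM in NP-IWP2 and only 1 in P-DF. The Day 12 P-DF sum thus rested mostly on 1 gene. Epithelial markers did not follow this order: 6 genes summed on Day 16 to 313 to 400 FPKM in NP-IWP2, 237 to 274 for P-DF and 294 to 418 for P-IWP2. One library stood apart from its partner, Day 12 P-IWP2 replicate 5. Its cardiomyocyte genes summed to 3664 FPKM against 8794 in replicate 6, and the epicardial gene TBX18 had 106 FPKM against 0.08. All 12 libraries enter one model, so this pair also bears on the error of comparisons that do not include it. For several results the value without replicate 5 is given as well. In bulk RNA, fewer cells of a type and less RNA per cell cannot be told apart.

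ATP1B4 was close to absent on Day 12 and in static culture, and present in passaged cells on Day 16, with P-IWP2 above P-DF. In NP-IWP2 the counts were 4 and 0 reads on Day 12 and 3 and 0 on Day 16, which are 0.05 and 0 FPKM and then 0.03 and 0. A count of 0 allows up to 3 reads, counting error only. In P-DF the level was 0.25 and 0.09 FPKM on Day 12 (18 and 7 reads) and 0.88 and 1.04 FPKM on Day 16 (68 and 89 reads). In P-IWP2 it was 0.08 and 0.22 FPKM on Day 12 (6 and 17 reads) and 5.40 and 6.52 FPKM on Day 16 (466 and 597 reads). The Day 16 libraries of P-IWP2, P-DF and NP-IWP2 did not overlap, and each passaged Day 16 library lay above every Day 12 library.

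**Figure D1:**
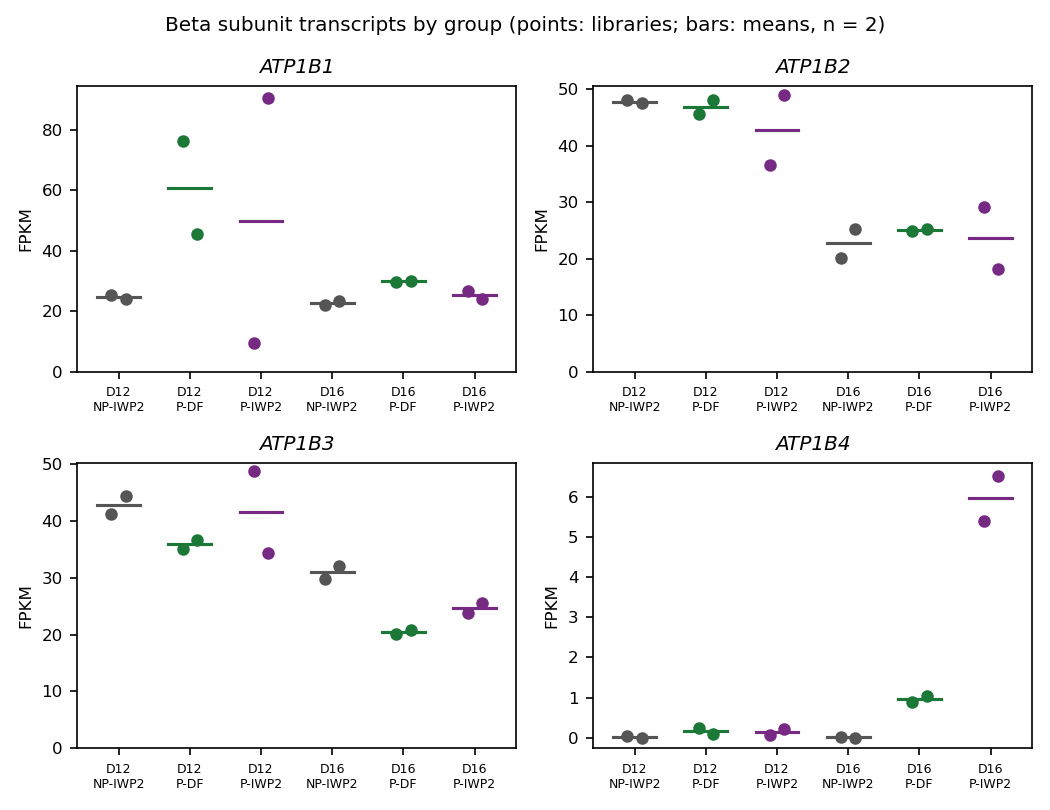
FPKM (y axis) of the 4 beta subunit genes in the 6 groups (x axis); each point is 1 library and each bar the mean of 2. ATP1B4 reached 5.40 and 6.52 FPKM in P-IWP2 and 0.88 and 1.04 in P-DF on Day 16, while ATP1B1, ATP1B2 and ATP1B3 stayed between 9.40 and 90.5 FPKM in every library.

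Ordered by mean level, ATP1B4 ran from Day 16 P-IWP2 (5.96 ± 0.79 FPKM, SD, n = 2) and Day 16 P-DF (0.96 ± 0.11) to Day 12 P-DF (0.17 ± 0.11) and Day 12 P-IWP2 (0.15 ± 0.099). The static groups came last, at 0.025 ± 0.035 FPKM on Day 12 and 0.015 ± 0.021 on Day 16. The passaged Day 12 groups did not differ beyond their spread, nor did the static groups of the 2 days. The remaining neighbours in this order each differed by more than the spread. Because ATP1B4 was picked for its pattern over these groups, the order and its gaps are a description and no support for it.

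The ratios of summed ATP1B4 counts, scaled to library size, were large and imprecise where the static count was the divisor. On Day 16, P-DF was 63.2-fold above NP-IWP2 (95% counting interval 21.2 to 310, from 157 against 3 reads). P-IWP2 was 404-fold above NP-IWP2 (138 to 1964, from 1063 against 3 reads). With IWP2 added to passaging, P-IWP2 was 6.40-fold above P-DF (5.41 to 7.62), a ratio that rests on more reads. On Day 12 the passaged groups had 25 and 23 reads against 4, ratios of 7.36 (2.54 to 29.1) in P-DF and 6.03 (2.06 to 24.0) in P-IWP2. These intervals cover counting error only, not the spread between cultures.

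Over the 4 days, ATP1B4 was 6.79-fold higher in P-DF (4.43 to 10.8) and 53.1-fold higher in P-IWP2 (35.2 to 84.1). In NP-IWP2 the Day 16 to Day 12 ratio was 0.792 (0.116 to 4.68), from 3 against 4 reads, so no direction could be read at this depth. Fitted with edgeR, the log2 fold change of ATP1B4 against NP-IWP2 on Day 16 was 5.86 ± 0.91 (SE) in P-DF and 8.55 ± 0.90 in P-IWP2. By size these had rank 3 and rank 1 of 19505 genes. ATP1B4 was picked for this pattern, so a high rank follows from the choice and is no support for it. The order also depends on the small number added to counts near 0. Against P-DF, the log2 fold change in P-IWP2 was 2.68 ± 0.59, rank 143.

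The genes on either side of ATP1B4 had other levels. On Day 16, TMEM255A, 50529 bases away on the minus strand, had 0.91 and 0.98 FPKM in NP-IWP2, 0.14 and 0.17 for P-DF and 0.65 and 0.78 for P-IWP2. LAMP2, a lysosomal membrane protein gene 42899 bases away on the minus strand, kept between 11.9 and 17.8 FPKM in all 12 libraries.

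Even where it was highest, ATP1B4 was the least abundant beta transcript. Its share of the summed FPKM of the 4 beta genes was 6.36% and 8.76% in the P-IWP2 libraries of Day 16 (mean 7.56% ± 1.7, SD, n = 2). The share was 1.16% and 1.35% in P-DF and 0.042% and 0% in NP-IWP2 on that day. On Day 12 the means of the 3 groups were between 0.022% and 0.11%. The summed beta FPKM of Day 16, scaled to library totals only, was 76.3 ± 6.2 in NP-IWP2, 76.4 ± 1.1 for P-DF and 79.7 ± 7.4 for P-IWP2. The edgeR fits also scaled these libraries by TMM factors. These were 0.99 and 1.07 in NP-IWP2, 0.88 and 0.87 in P-DF, and 0.88 and 0.81 in P-IWP2. On that scale the passaged sums would lie higher relative to the static ones.

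**Figure D2:**
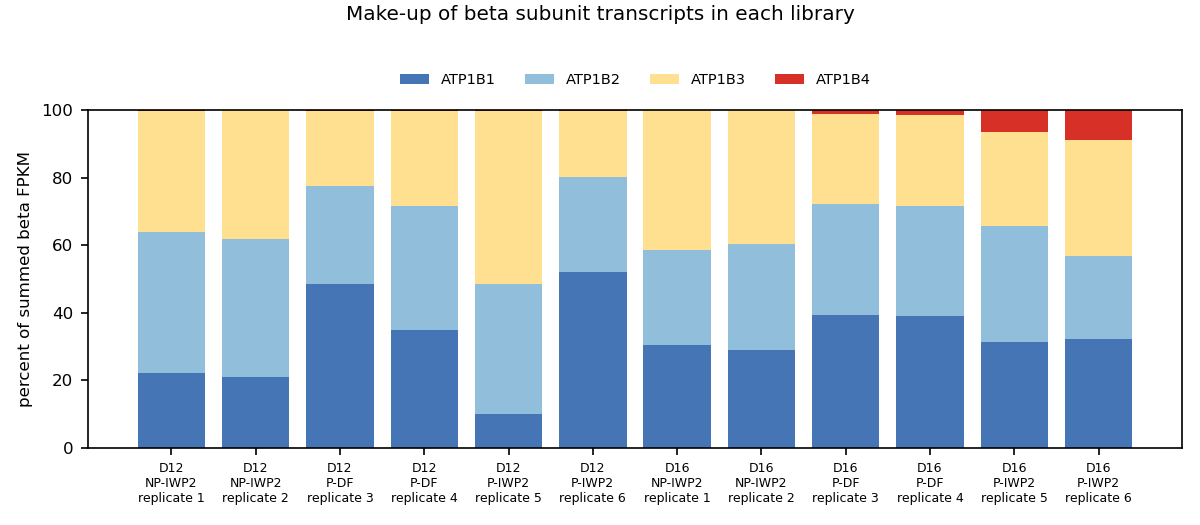
Percent of the summed beta subunit FPKM (y axis) contributed by each beta gene in the 12 libraries (x axis). The ATP1B4 share is visible in the 4 passaged Day 16 libraries, from 1.16% to 8.76%, and the other 3 genes make up the rest.

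ATP1B1, the most widely expressed beta subunit, had its widest range on Day 12. It had 25.3 and 24.2 FPKM in NP-IWP2, 76.3 and 45.6 in P-DF, and 9.40 and 90.5 in P-IWP2. The P-DF libraries lay above both static libraries, and the P-IWP2 libraries fell on either side of them. On Day 16 the levels drew together, at 22.0 and 23.3 in NP-IWP2, 29.8 and 30.1 in P-DF, and 26.7 and 24.1 in P-IWP2. With edgeR over all 12 libraries and the filter on low counts no change of ATP1B1 was called, and the log2 fold change of P-DF against NP-IWP2 was 1.39 ± 0.78 on Day 12 (adjusted p = 0.327) and 0.64 ± 0.76 on Day 16 (adjusted p = 0.605).

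Without Day 12 P-IWP2 replicate 5, the same ATP1B1 differences passed. P-DF was higher by 1.39 ± 0.18 on the log2 scale on Day 12 (edgeR adjusted p = 0.000126) and by 0.64 ± 0.18 on Day 16 (adjusted p = 0.0169). In P-DF, ATP1B1 then fell from Day 12 to Day 16 by 0.77 ± 0.18 (adjusted p = 0.00703). The P-IWP2 change on Day 12 depended on which library was kept, 1.96 without replicate 5 and -1.54 without replicate 6. The ATP1B1 locus (chr1:169105697-169310992) overlaps NME7 on the other strand, and whether the counts used strand is not given in the sources used here.

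ATP1B2, known in glia as an adhesion molecule, was lower on Day 16 than on Day 12 in all 3 treatments. On Day 12 it had 48.0 and 47.5 FPKM in NP-IWP2, 45.5 and 48.0 in P-DF, and 36.5 and 49.0 in P-IWP2. On Day 16 it had 20.1 and 25.3, 24.9 and 25.3, and 29.1 and 18.2. All 6 Day 16 libraries were below all 6 Day 12 libraries. The log2 fold change over time was -0.97 ± 0.22 in NP-IWP2 (edgeR adjusted p = 0.0631), -0.64 ± 0.22 in P-DF (adjusted p = 0.0883) and -0.48 ± 0.22 in P-IWP2 (adjusted p = 0.135), and none was called. Without replicate 5 all 3 were called (edgeR adjusted p = 0.000841, 0.00575 and 0.00714), and with all 12 libraries scaled to total counts all 3 were called as well. Between treatments on the same day ATP1B2 differed by 0.38 or less on the log2 scale, with no call.

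ATP1B3, a broadly expressed beta subunit, was called over time in P-DF. It had 35.1 and 36.7 FPKM in P-DF on Day 12 and 20.2 and 20.7 on Day 16, a fall by 0.55 ± 0.12 on the log2 scale (edgeR adjusted p = 0.0192). That fall was called in 14 of 19 alternative analyses. In NP-IWP2 it had 41.2 and 44.3 FPKM on Day 12 and 29.9 and 32.1 on Day 16 (log2 fold change -0.35 ± 0.12, edgeR adjusted p = 0.158, and 0.0266 without replicate 5). In P-IWP2 it had 48.8 and 34.4 FPKM and then 23.7 and 25.6. The lowest ATP1B3 level was thus in P-DF on Day 16, where it was -0.37 ± 0.12 against NP-IWP2 (adjusted p = 0.0729, and 0.012 without replicate 5).

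ATP1A4, an alpha subunit known from sperm, had 2 to 31 reads per library. It was highest in static cells of Day 12, with 31 and 19 reads, and on Day 16 it had 2 and 2 in NP-IWP2, 6 and 9 in P-DF, and 13 and 5 in P-IWP2. Its call in P-IWP2 on Day 16 (log2 fold change 2.28 ± 0.67, edgeR adjusted p = 0.0449) rests on 18 against 4 reads, and held in 3 of 16 alternatives. In NP-IWP2 it fell over time by 3.47 ± 0.62 (adjusted p = 0.0299, called in 8 of 17 alternatives).

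Among the FXYD regulators, FXYD1 was higher in passaged cells on Day 16 and FXYD5 was lower. FXYD1 is phospholemman, the main pump regulator of heart muscle, which releases the pump from inhibition once it is phosphorylated. It had 4.17 and 3.52 FPKM in NP-IWP2 on Day 16, 10.2 and 8.40 in P-DF, and 9.70 and 8.65 in P-IWP2. It rose by 1.49 ± 0.37 on the log2 scale in P-DF (edgeR adjusted p = 0.0277) and by 1.52 ± 0.37 in P-IWP2 (adjusted p = 0.0241), each called in 14 of 18 alternatives. FXYD1 also rose from Day 12 to Day 16, by 1.35 ± 0.37 in P-DF (edgeR adjusted p = 0.0431, called in 7 of 19 alternatives) and 1.63 ± 0.37 in P-IWP2 (adjusted p = 0.0147). In NP-IWP2 its change over time was 1.10 ± 0.39 (adjusted p = 0.165), and without replicate 5 it was called there too (1.11 ± 0.23, adjusted p = 0.00609). Between P-IWP2 and P-DF on Day 16, FXYD1 differed by 0.03 ± 0.36 on the log2 scale, and its libraries overlapped.

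FXYD5 (dysadherin), which acts on the pump in epithelia and on adhesion, had 4.94 and 5.55 FPKM in NP-IWP2 on Day 16. It had 0.04 and 0.07 in P-DF, and 0.11 and 0.49 in P-IWP2. It fell by 6.20 ± 1.2 on the log2 scale in P-DF (edgeR adjusted p = 0.0104) and fell by 3.81 ± 0.97 in P-IWP2 (adjusted p = 0.0281). On Day 12 it had 3.07 and 4.00 FPKM in NP-IWP2, 0.36 and 0.23 in P-DF, and 6.59 and 0.53 in P-IWP2. The high value was again replicate 5, and a fall over time called in P-IWP2 (-3.03 ± 0.96, adjusted p = 0.0441) was -0.48 without it (adjusted p = 0.604). On Day 16 FXYD5 was higher in NP-IWP2, as were the fibroblast and hepatic sums given above and the sum of 6 epicardial genes. The epicardial genes summed to 69.6 to 99.2 FPKM in NP-IWP2, 0.70 to 0.84 for P-DF and 0.30 to 0.43 for P-IWP2. The hepatic sum did not follow FXYD5 in Day 12 P-IWP2, at 8.22 to 8.89 FPKM against 452 to 642 in NP-IWP2. In that P-IWP2 pair the fibroblast sum ran from 44.3 to 755 FPKM and the epicardial sum from 0.76 to 140. The part of these cells in the FXYD5 result was not tested.

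FXYD7, known from brain, had 25 and 49 reads in NP-IWP2 on Day 16, 1 and 0 in P-DF, and 6 and 3 in P-IWP2. It was called lower in P-DF (edgeR adjusted p = 0.0159), with a ratio of summed counts of 0.0163 (95% counting interval 0.00041 to 0.0938), and had an adjusted p of 0.0546 in P-IWP2 (0.00612 without replicate 5, called lower). The summed FPKM of 12 neural and glial markers on Day 16 was 21.0 to 22.4 in NP-IWP2 and at most 1.60 in the passaged libraries. Only 1 of the 12 had a mean of at least 1 FPKM in NP-IWP2, so the sum does not show these markers moving together. The part of such cells in the FXYD7 result was not tested. FXYD6 (phosphohippolin) was the most abundant FXYD transcript, at 11.5 to 26.2 FPKM, with no call over all 12 libraries. Without replicate 5 it was called higher over time in P-DF (0.53 ± 0.14, adjusted p = 0.0113). FXYD2, the kidney gamma subunit, had 0 to 21 reads. FXYD3 and FXYD4 had at most 1 and 4 reads and did not pass the filter on low counts. FXYD1 and FXYD7 both overlap a read-through gene, and FXYD2 and FXYD6 share another, so the overlap may affect their counts.

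**Figure D3:**
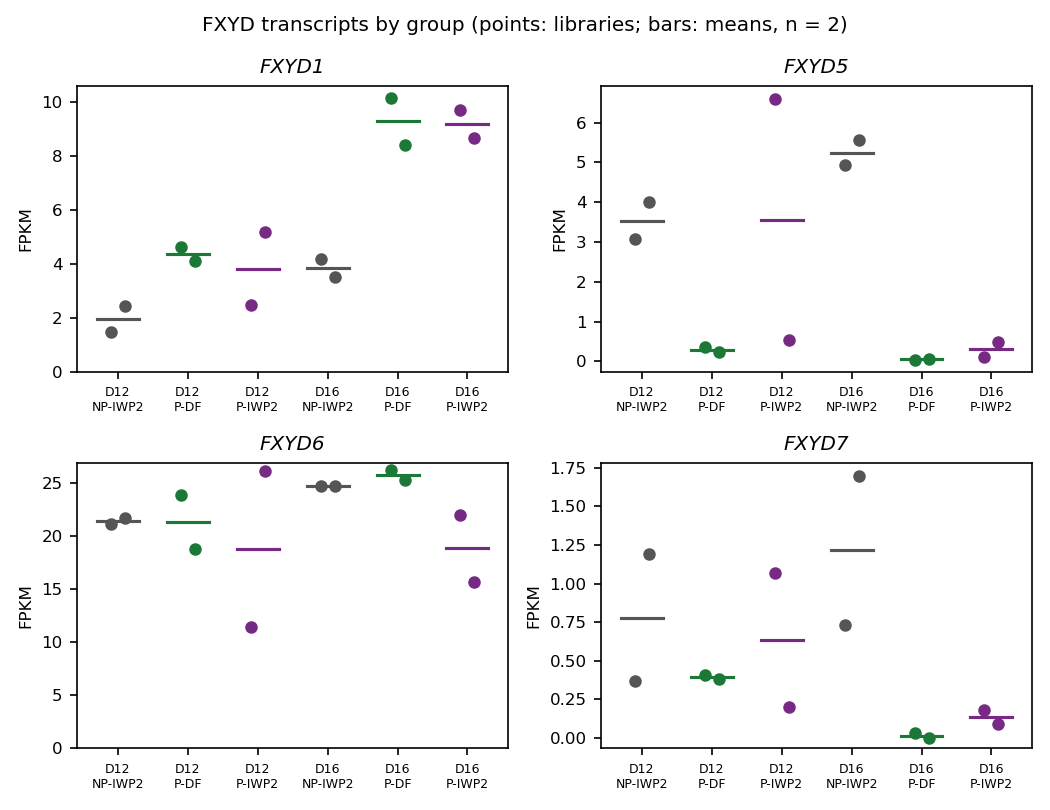
FPKM (y axis) of 4 FXYD genes in the 6 groups (x axis); each point is 1 library and each bar the mean of 2. On Day 16, FXYD1 was higher and FXYD5 was lower in both passaged groups than in NP-IWP2.

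**Figure D4:**
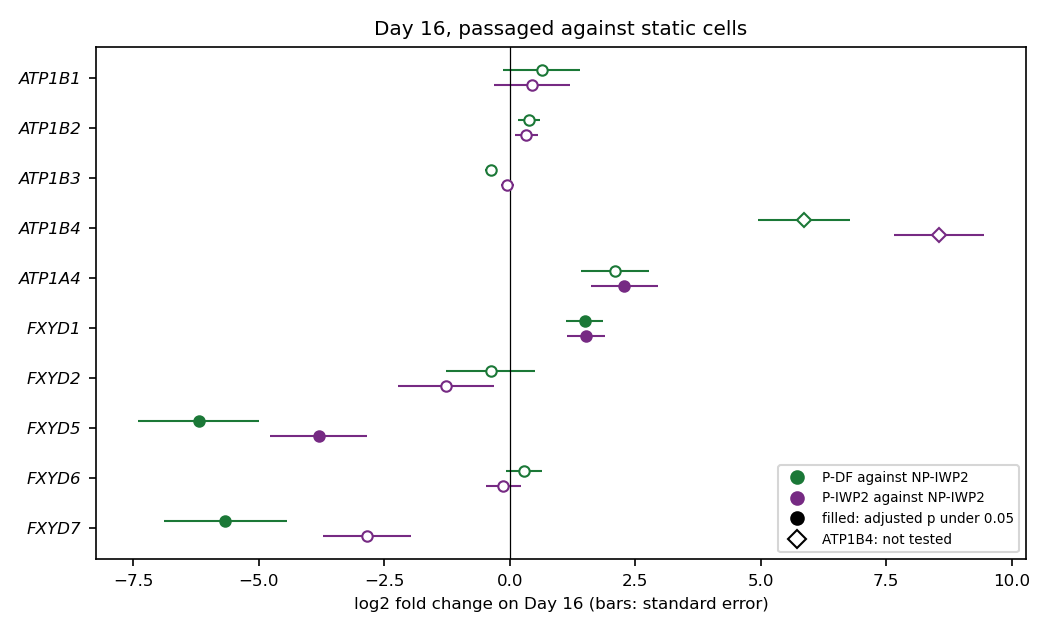
Log2 fold change on Day 16 against NP-IWP2 (x axis, bars are standard errors) for 9 pump subunit and FXYD genes tested and ATP1B4 (y axis), in P-DF and P-IWP2; filled points passed an adjusted p of 0.05. ATP1B4 lies farthest to the right at 5.86 and 8.55 and carries no test, and FXYD1 and FXYD5 are filled in both groups.

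Counted together, 11 genes were set against ATP1B4 (the other 3 beta subunits, ATP1A4 and the 7 FXYD genes), and 9 passed the filter. On Day 16, 3 were called in P-DF, 1 higher (FXYD1) and 2 lower (FXYD5 and FXYD7), where 15.3% of all genes tested were called, 5.39% higher and 9.86% lower. In P-IWP2 on Day 16, 3 were called, 2 higher (ATP1A4 and FXYD1) and 1 lower (FXYD5), where 17.1% of all genes were, 7.15% higher and 9.95% lower. The median log2 fold change of the 9 was 0.29 for P-DF and -0.05 for P-IWP2, against -0.015 and -0.030 over all genes. These comparisons use the same static libraries. Without Day 16 NP-IWP2 replicate 1 or 2 the P-IWP2 count was 0 and the P-DF count 2 or 1. Without Day 16 P-DF replicate 3 or 4 the P-DF count was 0, and without Day 16 P-IWP2 replicate 5 or 6 the P-IWP2 count was 0.

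On Day 12 none of these genes was called by edgeR in P-DF, where 4.01% of all genes were called, or in P-IWP2, where 1.66% were. At an unadjusted p under 0.05 there were 3 and 2, and DESeq2 called 2 and 0 and limma 0 and 0. Without replicate 5, edgeR called 3 in each: ATP1B1 and FXYD1 higher and FXYD5 lower. The background without that library was 21.9% and 15%, and on Day 16, where edgeR then called 5 and 4, 32.4% and 34.8%.

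Between P-IWP2 and P-DF on Day 16 none of these genes was called by edgeR, nor was any other gene (0% of 19505, with 1567 at an unadjusted p under 0.05). Of the 9 genes 1 had an unadjusted p under 0.05, and DESeq2 and limma called none. ATP1B1 differed by -0.19 ± 0.76, ATP1B2 by -0.05 ± 0.22 and ATP1B3 by 0.32 ± 0.12 on the log2 scale, set beside 2.68 ± 0.59 for ATP1B4. By size ATP1B4 had rank 143, and it is among the 19505 genes with no call. Without replicate 5, 2.49% of all genes and none of the 9 were called.

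Over time, 1 of the 9 was called in NP-IWP2 (ATP1A4, lower), where 1.98% of all genes were called. In P-DF 2 were called (FXYD1 higher, ATP1B3 lower) at a background of 13.6% (6.79% higher, 6.81% lower). In P-IWP2 2 were called (FXYD1 higher, FXYD5 lower) at 27% (12.9% higher, 14.1% lower). Without replicate 5 there were 4, 6 and 3, at 17.1%, 29.2% and 23.7%. The change over time differed from that in static cells for 1 gene in P-IWP2 (ATP1A4, background 1.84%). For P-DF edgeR called 0 (background 0.482%), with 2 at an unadjusted p under 0.05, and DESeq2 and limma called 0. Without replicate 5 there were 2 and 2, at 7.89% in P-IWP2 and 7.62% in P-DF.

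The related potassium pumps of stomach and colon, ATP4A, ATP4B and ATP12A, had at most 4 reads in any library and did not pass the filter.

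ATP1B4 differed between passaged groups whose cardiomyocyte transcripts overlapped in level. The 16 cardiomyocyte genes summed to 15420 and 17800 FPKM in the P-DF libraries of Day 16 and 17380 and 20810 in the P-IWP2 libraries, ranges that overlap. Per 1000 FPKM of the cardiac troponin gene TNNT2, ATP1B4 was 8.30 and 13.2 in P-DF, 53.5 and 77.1 in P-IWP2, and 0.40 and 0 in NP-IWP2. The Day 16 static libraries held 5711 to 9021 FPKM of cardiomyocyte genes, and the P-DF libraries of Day 12 held 8587 to 9100. TNNT2 did not follow this sum on Day 16. It had 74.8 and 87.8 FPKM in NP-IWP2, 106 and 78.7 in P-DF, and 101 and 84.6 in P-IWP2. The ratio to TNNT2 is therefore no correction for cardiomyocyte content. The part of cardiomyocyte content in the ATP1B4 differences was not tested.

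**Figure D5:**
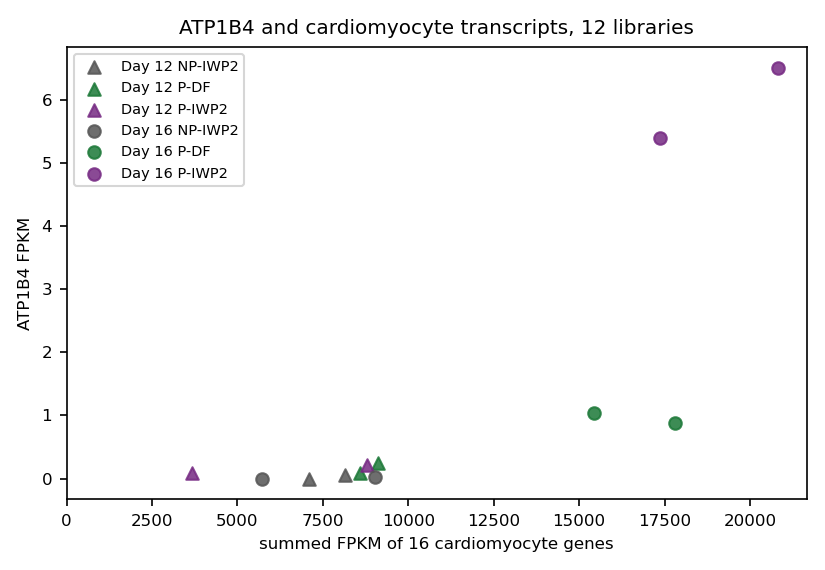
ATP1B4 FPKM (y axis) against the summed FPKM of 16 cardiomyocyte genes (x axis) in the 12 libraries, colored by treatment, with triangles for Day 12 and circles for Day 16. The P-DF and P-IWP2 libraries of Day 16 lie from 15420 to 20810 on the x axis, with overlapping ranges, and at 0.88 to 1.04 and 5.40 to 6.52 FPKM of ATP1B4.

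Markers of skeletal muscle, the other tissue known for ATP1B4, stayed low. The 14 genes summed to 2.82 to 3.18 FPKM in NP-IWP2 on Day 16, 2.18 to 2.49 in P-DF and 3.28 to 3.67 in P-IWP2. The myogenic regulators MYOD1 and MYF5 were at 0 in all 6 Day 16 libraries, and MYOG was at 0.21 FPKM or less. One gene of the list, the muscle fusion factor MYMK, had 0.67 and 0.92 FPKM in P-DF and 1.25 and 0.31 in P-IWP2 on Day 16, against 0 and 0.06 in NP-IWP2.

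Transporters that use the sodium gradient changed in both directions. Of 13 genes, 12 passed the filter. On Day 16, 4 were called in each passaged group, 2 higher and 2 lower in P-DF and 1 higher and 3 lower in P-IWP2, beside 15.3% and 17.1% of all genes. Without replicate 5, 7 and 6 of 13 were called, beside 32.4% and 34.8%. The bicarbonate cotransporter SLC4A4 had 3.04 and 3.64 FPKM in NP-IWP2 on Day 16, 6.14 and 6.52 in P-DF, and 6.67 and 5.23 in P-IWP2. It rose by 1.16 ± 0.21 and 1.11 ± 0.21 on the log2 scale (edgeR adjusted p = 0.00847 and 0.0094), and was the only gene of the list called on Day 12 with all 12 libraries. SLC8A1, the sodium-calcium exchanger of heart, had 51.8 and 39.4 FPKM in NP-IWP2, 100 and 101 in P-DF, and 77.1 and 71.0 in P-IWP2. It rose in P-DF by 1.36 ± 0.38 (adjusted p = 0.0418, called in 8 of 18 alternatives), and its difference in P-IWP2 was 0.97 ± 0.38 (adjusted p = 0.108). Without replicate 5 the P-IWP2 difference was called as well (0.97 ± 0.15, adjusted p = 0.00033). Its relative SLC8A3 had 12 and 14 reads in NP-IWP2, 0 and 0 in P-DF, at least 7.18-fold lower, and 1 and 0 in P-IWP2. SLC6A6, the taurine transporter, had 2.24 and 2.59 FPKM in NP-IWP2, 1.18 and 1.18 in P-DF, and 0.96 and 1.19 in P-IWP2. It fell by 0.80 ± 0.22 in P-DF (edgeR adjusted p = 0.043) and fell by 0.88 ± 0.23 in P-IWP2 (adjusted p = 0.0284).

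Genes that anchor or modulate the pump at the membrane were called in the rising direction only. Of 9 genes, 2 were called higher in P-DF and 5 in P-IWP2 on Day 16, beside 5.39% and 7.15% of all genes called higher. From Day 12 to Day 16, 8 rose in P-IWP2 and 4 in P-DF, beside 12.9% and 6.79%, and none was called lower. Without replicate 5 the Day 16 counts were 6 for P-DF and 9 for P-IWP2, all higher, beside 32.4% and 34.8% of all genes called in either direction, and those over time were 7 and 7, beside 29.2% and 23.7%. On Day 16 the list had a median log2 fold change of 0.683 for P-DF and of 1.09 for P-IWP2, beside -0.015 and -0.030 over all genes. The summed cardiomyocyte genes given above were also higher in these groups than in static cells of Day 16, and their part in these counts was not tested. ANK2, the ankyrin that holds pump and exchanger together in heart, had 1.70 and 2.05 FPKM in NP-IWP2 on Day 16, 4.02 and 4.24 in P-DF, and 3.56 and 3.02 in P-IWP2. It rose by 1.38 ± 0.25 (edgeR adjusted p = 0.00836) and 1.09 ± 0.25 (adjusted p = 0.0194) on the log2 scale. ANK1 rose in P-IWP2 by 1.39 ± 0.37 (adjusted p = 0.0336), and in P-DF its difference was 0.68 ± 0.37 (adjusted p = 0.245, and 0.0458 without replicate 5). CAV3, the caveolin of muscle, had 3 and 3 reads in NP-IWP2, 10 and 8 in P-DF, and 21 and 28 in P-IWP2, the last a ratio of 9.32 (95% counting interval 3.99 to 26.6) and called by edgeR (adjusted p = 0.0209). CAV1, the caveolin of many cell types, rose over time in P-DF (2.74 ± 0.68, adjusted p = 0.0306) and P-IWP2 (2.50 ± 0.67, adjusted p = 0.0262). Its static change was 2.30 ± 0.69 (adjusted p = 0.12), and without replicate 5 it was called too (2.31 ± 0.56, adjusted p = 0.0139).

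Genes of the nuclear envelope, where the BetaM protein resides, were called in small numbers on Day 16. Of 17 genes, 1 was called on Day 16 in each passaged group, which was SUN1 in both, a share below the 15.3% and 17.1% of all genes. SUN1, which links the nuclear lamina to the cytoskeleton, rose by 0.69 ± 0.12 on the log2 scale in P-DF (edgeR adjusted p = 0.00661) and 0.43 ± 0.12 in P-IWP2 (adjusted p = 0.0405, called in 4 of 18 alternatives). Over time 4 were called in P-DF (SUN1, EMD, LMNB1 and LMNA, all higher) and 4 in P-IWP2 (EMD, LMNB1 and LMNA higher, TOR1AIP1 lower). In NP-IWP2 2 were called (LMNA and SYNE2, both higher). The shares of all genes called were 13.6% in P-DF, 27% in P-IWP2 and 1.98% in NP-IWP2. The share of this list was thus above that of all genes in P-DF and NP-IWP2 and below it in P-IWP2. Without replicate 5 the Day 16 counts were 3 for P-DF and 5 for P-IWP2, beside 32.4% and 34.8%. Those over time were then 6, 4 and 3, beside 29.2%, 23.7% and 17.1%, and TOR1AIP1 was no longer called over time (adjusted p = 0.0517). EMD, the gene for emerin, rose by 0.68 ± 0.17 in P-DF (adjusted p = 0.0313) and 0.75 ± 0.17 in P-IWP2 (adjusted p = 0.0144). LMNA, the lamin A/C gene, named after its values were seen, had 11.7 and 12.3 FPKM in NP-IWP2 on Day 12 and 23.0 and 21.2 on Day 16. It rose in all 3 treatments, by 0.99 ± 0.14, 0.81 ± 0.14 and 1.33 ± 0.14. SNW1, named as the binding partner of BetaM, stayed between 25.8 and 33.2 FPKM in all 12 libraries, with no call.

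The 10 genes most like ATP1B4 were found by Pearson's r of log2 CPM (counts scaled to library size) over the 12 libraries, among 17140 genes with a symbol that passed the filter. They were SEC61A2, PHTF1, PLCD3, EPOP, ZC4H2, USP32, NR1H2, VPS50, DCAF5 and CYB5R1, with r from 0.960 to 0.968. Of these, 3 stayed among the 10 highest without replicate 5, and none did on log2(FPKM + 1), so the list depends on the scale and on 1 library. By fold, their levels changed far less than that of ATP1B4. SEC61A2, the most alike, had a mean of 7.29 FPKM in NP-IWP2 and 9.85 in P-IWP2 on Day 16, EPOP had 1.23 and 4.79, and CYB5R1 had 5.86 and 20.1. Of the pump and FXYD genes compared here, FXYD1 was the most like ATP1B4 (r = 0.851), before FXYD6 (0.303). The 16 cardiomyocyte genes were mixed, with r from -0.682 (MYH6) to 0.866 (ACTN2). Some were about as alike as FXYD1, among them TTN (0.840) and MYL2 (0.831). Others were less so, among them MYL3 (0.649), NKX2-5 (0.518), TNNT2 (0.424) and RYR2 (0.399). FXYD7 (-0.777), FXYD5 (-0.733) and FXYD2 (-0.715) ran the other way. The values were 0.274 for ATP1B1, -0.214 for ATP1B2 and -0.581 for ATP1B3. The points share libraries, depth and scaling, and r is given as a description.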

How the data were processed

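RNA-seq libraries of H1 cells (6 groups of 2) were analysed from one table. The authors trimmed reads with Cutadapt 1.9.1, aligned them with HISAT2 2.0.1 to hg38 and counted them per gene with HTSeq 0.6.1. The deposited counts are not normalized. The deposited FPKM equal the count divided by exon length and by the library total of counts, for 100.0% of values within 0.006. The gene annotation, strand setting and pooling are not given in the sources used here. The labels name a low-input cDNA module and a SMRTbell kit. No row lacked a gene ID, and 20417 of 61806 genes had no symbol. Positions equal those of the hg38 reference annotation for 98.12% of 61757 shared genes.

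Counts were tested with edgeR 4.0.16 in R 4.3.3 (TMM, filterByExpr, quasi-likelihood test, one model of 6 groups, 12 libraries), with Benjamini-Hochberg adjustment over 19505 genes and a threshold of 0.05. SE is the absolute log2 fold change divided by the square root of F. Ratios of summed counts carry exact 95% intervals for counting error, and 3 counts (0.156 to 0.202 CPM) is the limit for a count of 0. The median library had 16452289 counts. On simulated counts for Day 16 P-DF against NP-IWP2 (19505 genes), edgeR recovered 17 of 100 genes changed 2-fold and 61 of 100 changed 4-fold, with 3 false calls.

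Alternatives were DESeq2 1.42.0, limma 3.58.1 on log2(FPKM + 1), size factors of DESeq2 (RLE) or total counts in place of TMM, no filter, a model of only the groups compared, a replicate block, and leaving out each library. The members and gene lists were chosen with earlier results of these data known. Some pump subunit and sodium-handling genes are not reported here and are in none of the gene lists. Named are the remaining subunit genes and, from the other lists, up to 4 genes called in a passaged group on Day 16 or over time, by their size on Day 16. Equal replicate numbers on the 2 days did not pair the libraries. Tables and figures were made with Python 3.11.15, pandas 2.3.3, scipy 1.17.1 and matplotlib 3.10.9.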

Additional observations from a re-analysis of the deposited data

Results flagged for a closer look

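In 2 genes the change from Day 12 to Day 16 differed between passaged and static cells by edgeR's test of that difference, over all 12 libraries. Both were called for P-IWP2, where 1.84% of all genes were. They were 1 of 9 pump subunit and FXYD genes and 1 of 9 genes that anchor or modulate the pump. Of 12 sodium gradient users and 17 nuclear envelope genes, 0 were called. For P-DF 0 were called in any list, where 0.482% of all genes were. For ATP1A4 the change in P-IWP2 exceeded the static one by 4.24 ± 0.85 (adjusted p = 0.0438, called in 4 of 17 alternatives, adjusted p from 0.00266 to 0.214). Its counts were 31 and 19 in NP-IWP2 on Day 12 and 2 and 2 on Day 16, against 7 and 5 and then 13 and 5 in P-IWP2.

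For SPTB, the erythroid and muscle beta spectrin that links ankyrin to actin and is named here after its values were seen, the excess in P-IWP2 was 2.05 ± 0.25 (adjusted p = 0.0119, called in 14 of 19 alternatives, adjusted p from 7.14e-14 to 0.083). SPTB had 3.40 and 4.40 FPKM in P-IWP2 on Day 12 and 9.18 and 10.3 on Day 16, against 6.47 and 6.10 and then 4.60 and 4.66 in NP-IWP2.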

How the results depend on the processing

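With 2 libraries per group, counts of called pump subunit and FXYD genes moved with the settings. Without the filter on low counts they were 3 and 2 on Day 12 (P-DF, P-IWP2), 1 for P-IWP2 against P-DF, 3, 7 and 4 over time (NP-IWP2, P-DF, P-IWP2) and 3 and 3 for the differences in change over time (P-DF, P-IWP2). With only the groups compared in the model they were 4 (P-DF, Day 12), 7 (P-DF, Day 16), 6, 7 and 0 over time, and 3 and 0 for the differences. DESeq2 called 2 in P-DF on Day 12. Total counts gave 2 and 5 over time (NP-IWP2, P-IWP2). For the P-IWP2 difference, limma on log2(FPKM + 1) and total counts gave 0 and 0. The share of all genes called is not given for these settings or the replicate block. It is also not given for leaving out a library other than Day 12 P-IWP2 replicate 5. A higher count there cannot be told apart from a general rise in calls. Depth limits ATP1B4 in static cells and ATP1A4, FXYD7, SLC8A3 and CAV3, which had few reads.

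Leaving out 1 library in turn gave 0 to 3 called genes in each Day 12 comparison, 0 to 5 (P-DF) and 0 to 4 (P-IWP2) on Day 16, 0 to 0 for P-IWP2 against P-DF, 0 to 4, 0 to 6 and 0 to 7 over time, and 0 to 2 and 0 to 7 for the differences. The highest values came without a Day 12 P-IWP2 library. ATP1B4 log2 fold changes ran from 4.98 to 9.47 (P-DF) and 7.66 to 12.15 (P-IWP2) on Day 16, the highest without Day 16 NP-IWP2 replicate 1, which held the 3 static reads, and from 2.49 to 2.87 between the passaged groups. Over time they ran from -3.92 to 3.60 (NP-IWP2), 2.14 to 3.63 (P-DF) and 5.09 to 6.73 (P-IWP2). limma on log2(FPKM + 1) compresses low levels and gave 0.95, 2.77 and 1.82 on Day 16 and 0.75 and 2.60 over time in the passaged groups. The ATP1B4 share of beta FPKM uses the deposited FPKM and has no alternative.

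Directions turned for ATP1B1 in P-IWP2 on Day 12 (1.96 without replicate 5, -1.54 without replicate 6) and over time (-1.53 and 1.97) and for ATP1B2 between the passaged groups (-0.35 without Day 16 P-IWP2 replicate 5, 0.22 without replicate 6). Neither was called by edgeR with the filter on low counts and all 12 libraries.

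With the replicate block, 0, 1 and 1 of these genes were called over time (NP-IWP2, P-DF, P-IWP2) and 0 and 0 for the differences, and ATP1B1 over time in P-IWP2 was 0.20. Deviations from the group means of equal numbers correlated by 0.0754, -0.00154 and -0.031 across genes, so the numbers did not pair the libraries.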

Other observations

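The P-IWP2 libraries of Day 16 differed from each other in several of these genes. Replicate 5 had 29.1 FPKM of ATP1B2 and 22.0 of FXYD6, and replicate 6 had 18.2 and 15.7. ATP1B4 stood the other way, at 5.40 and 6.52 FPKM.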
